A study of Mus musculus with 6 samples.

Results

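Messenger RNA of 43 genes for the synthesis of sterols, the synthesis of fatty acids and the oxidation of fatty acids was compared between CD8+ effector memory T cells sorted as S100A4-negative and as S100A4-positive. The genes were taken by symbol from a deposited table of 55951 genes, in which each of these symbols had a single row. They are 13 sterol enzymes, 4 genes that control sterol synthesis, 10 genes of fatty acid synthesis, desaturation and elongation, 4 acyl-CoA ligases and 12 genes of the carnitine shuttle and mitochondrial beta-oxidation. The cells came from spleens of C57BL/6 mice of genotype S100A4-EGFP (S100A4WT-EGFP in the protocol) with asthma induced by ovalbumin, in which EGFP reports S100A4, a small calcium-binding protein. The sort took CD3+CD8+CD4-CD44+ cells, restricted further to the effector memory state, and split them into EGFP- cells (S100A4-negative, 3 libraries) and EGFP+ cells (S100A4-positive, 3 libraries). The labels give the treatment as untreated, no age, and no statement of whether the 3 samples of a population came from separate animals or from pooled spleens, so p-values measure only the spread between these samples.

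Cholesterol is built from acetyl-CoA through mevalonate, farnesyl diphosphate, squalene and lanosterol, and the transcription factors encoded by Srebf1 and Srebf2 switch on these enzymes and those of fatty acid synthesis when sterols are scarce. Fatty acid synthesis also starts from acetyl-CoA, by way of malonyl-CoA, and its products are then desaturated and elongated. Oxidation runs the other way: a ligase joins the fatty acid to CoA, the carnitine shuttle carries it into mitochondria, and each beta-oxidation cycle releases acetyl-CoA; dividing T cells are known for raised lipid synthesis, and memory CD8+ T cells and alternatively activated macrophages for fatty acid oxidation.

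Start regions are shown for 6 genes on which the comparison turns: 2 sterol enzymes that were higher in S100A4-positive cells, 2 that were lower, the fatty acid synthase, and a beta-oxidation gene that shares its start region with its partner. The windows hold 250 bases before and 50 bases from the annotated start, read 5′ to 3′ on the gene's strand, from RefSeq on GRCm38.p6. Capitals mark CCAAT, the NF-Y box, or its reverse complement ATTGG, and in Hmgcs1 also the sterol element TCACNCCAC.
Hmgcs1, chr13:119690101-119690400, plus strand: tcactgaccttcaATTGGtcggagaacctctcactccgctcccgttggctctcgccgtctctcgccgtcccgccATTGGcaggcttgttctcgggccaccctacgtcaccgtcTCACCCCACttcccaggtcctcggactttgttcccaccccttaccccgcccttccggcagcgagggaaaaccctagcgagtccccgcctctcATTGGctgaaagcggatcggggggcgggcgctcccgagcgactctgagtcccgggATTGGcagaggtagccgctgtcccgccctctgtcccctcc
Mvd, chr8:122443373-122443672, minus strand: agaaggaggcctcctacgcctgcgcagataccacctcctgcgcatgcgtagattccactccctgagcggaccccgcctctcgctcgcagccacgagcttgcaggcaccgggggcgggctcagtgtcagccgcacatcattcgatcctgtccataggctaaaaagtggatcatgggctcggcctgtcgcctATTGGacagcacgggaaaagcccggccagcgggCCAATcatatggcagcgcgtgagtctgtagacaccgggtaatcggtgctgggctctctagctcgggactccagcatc
Lss, chr10:76531355-76531654, plus strand: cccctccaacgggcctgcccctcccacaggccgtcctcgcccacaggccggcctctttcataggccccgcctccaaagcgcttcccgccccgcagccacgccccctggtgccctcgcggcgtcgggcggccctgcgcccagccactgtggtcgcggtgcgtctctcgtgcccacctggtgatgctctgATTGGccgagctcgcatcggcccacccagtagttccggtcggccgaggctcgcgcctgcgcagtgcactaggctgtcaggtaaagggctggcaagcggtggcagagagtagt
Sc5d, chr9:42264251-42264550, minus strand: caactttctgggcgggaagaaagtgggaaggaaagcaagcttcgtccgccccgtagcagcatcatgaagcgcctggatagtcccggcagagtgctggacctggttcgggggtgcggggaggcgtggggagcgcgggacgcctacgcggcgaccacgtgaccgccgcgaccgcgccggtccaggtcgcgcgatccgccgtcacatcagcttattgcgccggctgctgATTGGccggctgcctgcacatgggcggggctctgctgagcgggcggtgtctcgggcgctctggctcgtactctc
Fasn, chr11:120824498-120824797, minus strand: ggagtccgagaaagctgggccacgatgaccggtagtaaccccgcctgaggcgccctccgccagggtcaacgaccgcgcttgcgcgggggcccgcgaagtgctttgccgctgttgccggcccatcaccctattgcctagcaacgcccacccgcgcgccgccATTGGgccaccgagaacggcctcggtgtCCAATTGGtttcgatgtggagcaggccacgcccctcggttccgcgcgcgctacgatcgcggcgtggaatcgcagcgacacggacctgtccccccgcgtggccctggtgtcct
Hadhb, chr5:30155003-30155302, plus strand: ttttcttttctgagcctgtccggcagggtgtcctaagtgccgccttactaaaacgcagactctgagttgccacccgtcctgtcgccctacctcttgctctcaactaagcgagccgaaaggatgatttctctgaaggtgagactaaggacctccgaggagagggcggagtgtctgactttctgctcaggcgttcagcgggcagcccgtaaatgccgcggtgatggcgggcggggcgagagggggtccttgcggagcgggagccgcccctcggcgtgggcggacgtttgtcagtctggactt

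A RefSeq window was found for 36 of the 43 genes, 44 windows in all. Each of the 10 sterol enzyme genes that had a window held CCAAT on either strand in at least 1 of its windows. Among 27025 mouse genes searched the same way 41.06% did. By window CCAAT was present in 10 of 13 for the sterol enzymes, against 37.41% of all 32851 windows. It was present in 4 of the 7 fatty acid synthesis genes and in 2 of the 11 genes of the carnitine shuttle and beta-oxidation (18.18%). The sterol element was found in 2 of the 36 genes, Hmgcs1 at 137 bases before the start and a second start of Acsl1, against 1.436% of all genes. The NF-Y boxes of Mvd lie 60 and 27 bases before the start, that of Lss 62 bases and that of Sc5d 24 bases before it. In Fasn the boxes begin 90, 62 and 59 bases before the start, and the last pair overlaps by 2 bases on opposite strands. A direct repeat of AGGTCA with 1 base between, the form bound by PPAR receptors, was found in none of the 36 and in 0.0481% of all genes. The window of Hadhb shares 228 bases with that of Hadha, which is read from the opposite strand with its start 273 bases away; both encode subunits of the mitochondrial trifunctional protein. A match is a description of letters in a window: no binding was measured in these samples.

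Levels are FPKM as deposited, which are scaled by gene length and can be compared between genes. A fold change is the S100A4-positive mean less the S100A4-negative mean of log2(FPKM + 1), which understates changes of low genes, and a gene was called when the limma test over all 13241 genes with a mean of at least 1 FPKM gave an adjusted p under 0.05. The libraries held 14925260 to 18660188 reads recovered from the deposited values, and the 43 genes drew 8 to 8598 reads each per library. S100a4 itself was read 0, 3 and 1 times in the S100A4-negative and 9, 25 and 11 times in the S100A4-positive libraries, and its rise was called (1.39, SE 0.32, adjusted p = 0.00778).

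Markers of T cells, the type that was sorted, and markers of other cells moved with the groups. The summed FPKM of 12 T cell markers was 2091 to 2572 in the S100A4-negative and 330.1 to 472.8 in the S100A4-positive libraries, all 12 called lower, and Cd3e fell from 124 to 158 FPKM to 18.0 to 30.2. Of 19 macrophage and monocyte markers 18 could be tested and 17 were called higher, with sums of 638.6 to 771.2 against 6841 to 7891. Of 8 dendritic cell markers 7 were called higher (47.98 to 84.46 against 360.4 to 513.3), and 7 of 9 B cell markers were called lower (7122 to 12540 against 1519 to 1566). Plasma cell markers (7 of 8 lower, 1 higher), neutrophil markers (9 of 10 lower, 1 higher) and cell cycle genes (7 of 9 lower, sums of 479.6 to 645.9 against 291.7 to 421.7) also moved, and the 6 erythroid markers tested did not pass. No marker in these lists was at 0 in all libraries. These differences run along the same groups as every comparison below and their part in it was not tested; in bulk RNA fewer cells of a type and less RNA per cell cannot be told apart.

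Of the 42 lipid genes that passed the filter on low values, 10 were called higher in the S100A4-positive libraries, 14 lower and 18 did not pass. Over all genes tested 19.0% were called higher and 43.4% lower, and among the lipid genes 23.8% and 33.3%. The median fold change of the lipid genes was -0.16, that of all genes -0.36, which puts them 0.19 above the typical gene. This downward shift of all genes depends on how libraries are scaled: it was -0.03 after median-of-ratios rescaling and -0.16 after quantile normalization, and the share of higher calls among all called genes moved from 30.4% to 52.4% and 42.0%. The lipid genes then had 16 higher and 8 lower calls with median-of-ratios rescaling (27.3% and 24.8% of all genes) and 12 and 10 with quantile normalization (22.9% and 31.6% of all genes). All 10 higher calls and 8 of the 14 lower calls held under the 3 scalings. Over all genes 2500 of 2512 higher calls and 3281 of 5741 lower calls held, much as for the lipid genes. These are 18.9% and 24.8% of all genes tested. The groups did not overlap for 12 genes with S100A4-positive above and for 18 with S100A4-negative above, and overlapped for 13; over all genes tested 20.9% and 49.1% were without overlap.

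**Figure D1:**
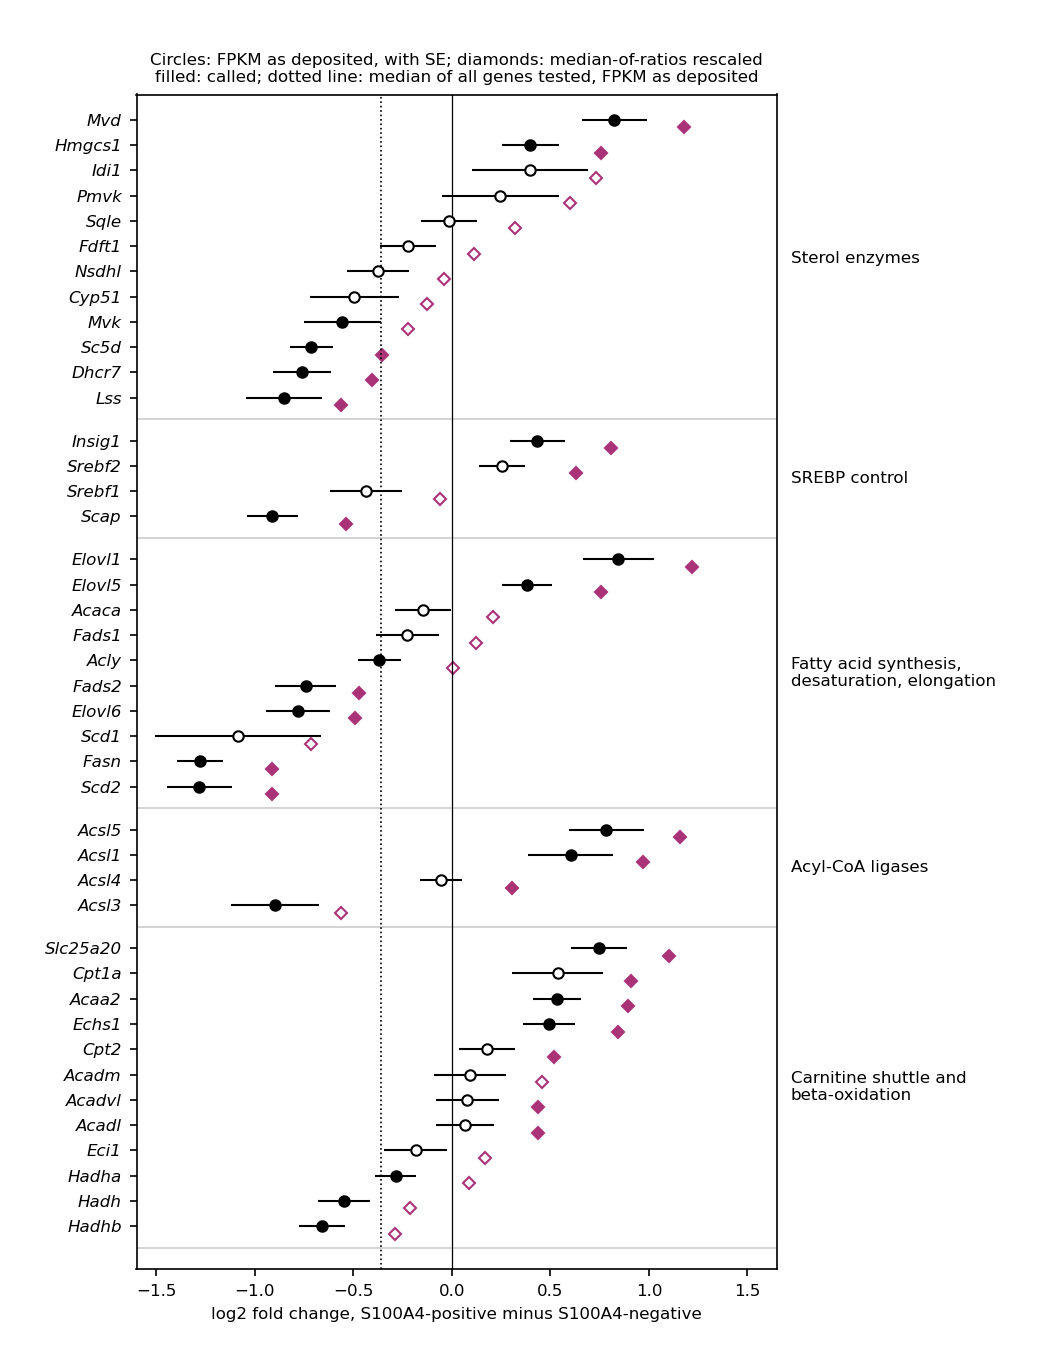
Log2 fold change (S100A4-positive minus S100A4-negative, horizontal axis) of the 42 lipid genes tested, by role. Circles give FPKM as deposited with SE, diamonds the values after median-of-ratios rescaling, filled symbols the called genes and the dotted line the median of all genes, -0.36; Fasn and Scd2 lie farthest to the left at -1.28, Elovl1 and Mvd farthest to the right at 0.85 and 0.82.

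Across 17 fits (the one reported here and 16 alternatives in scaling, filter, variance model and libraries), 13 of the 42 genes tested here were called in the same direction in every fit that tested them. Mvd, Elovl1, Acsl5, Slc25a20 and Acaa2 were higher each time, and Lss, Sc5d, Dhcr7, Scap, Fasn, Scd2, Fads2 and Elovl6 lower. Fdps, under the filter here, was called lower in the 4 alternatives that tested it. Of these, 1 had no filter and the others each left out an S100A4-positive library. Fdps passed the filter there only through the group in which it is high, so those calls are no added support. In the authors' deposited table Fdps has an adjusted p of 0.188. Over all genes 15.3% were called higher and 23.3% lower in every fit that tested them. By the authors' deposited table, of the 43 genes 10 have an adjusted p under 0.05 with a higher value and 2, Fasn and Scd2, with a lower one (11.6% and 7.35% of its 28627 genes). That table includes many genes under the filter of 1 FPKM, which 42 of the 43 lipid genes passed. Its shares over all genes are therefore not a like comparison. The 10 higher genes there are the same 10 called higher here.

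**Figure D2:**
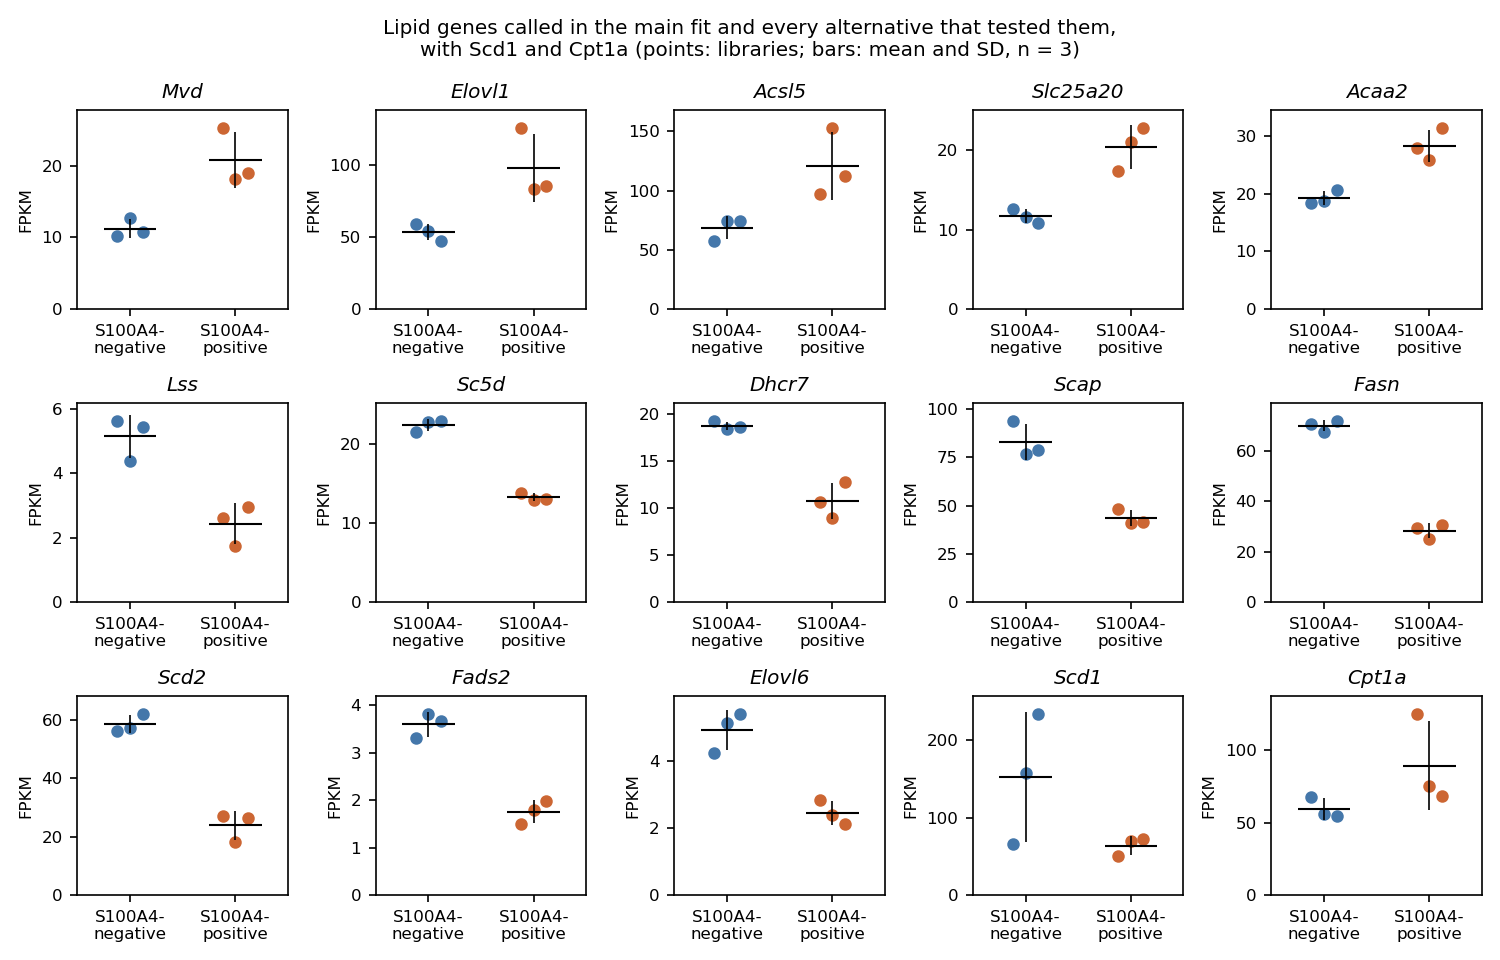
FPKM in each library (points) with mean and SD (bars, n = 3) for the 13 genes called here and in every alternative that tested them, with Scd1 and Cpt1a. The groups are apart in every panel except that of Scd1, where S100A4-negative replicate 1 lies within the S100A4-positive range; in that of Cpt1a, S100A4-positive replicate 1 stands above the other libraries.

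The 3 arms were counted side by side. Among 12 sterol enzymes tested 2 were called higher and 4 lower (median -0.30), among 10 genes of fatty acid synthesis, desaturation and elongation 2 were higher and 5 lower (median -0.56), and among 12 genes of the carnitine shuttle and beta-oxidation 3 were higher and 3 lower (median 0.08). After median-of-ratios rescaling the counts were 2 and 3 (median 0.04), 2 and 4 (median -0.23), and, in the oxidation arm, 7 higher with the other 5 not passing (median 0.45), beside a median of -0.03 over all genes. As shares, the sterol arm had 16.7% higher and 33.3% lower, fatty acid synthesis 20% and 50%, and oxidation 25% and 25%, beside 19.0% and 43.4% over all genes; after rescaling they were 16.7% and 25%, 20% and 40%, and 58.3% higher for oxidation, beside 27.3% and 24.8%. The sterol shares are near or below those of all genes. Fatty acid synthesis had a larger share lower than all genes, 50% beside 43.4%, and 40% beside 24.8% after rescaling. With 10 to 12 genes an arm, single genes move these shares, and the difference between arms was not tested. Other genes of these pathways, given below, did not repeat them. Among 9 more of fatty acid synthesis 33.3% were lower, and 22.2% after rescaling. Among 13 more of mitochondrial oxidation 30.8% were higher after rescaling, near the 27.3% of all genes. Summed over its genes, the sterol arm ran from 155 to 193 FPKM in the S100A4-negative and from 136 to 170 in the S100A4-positive libraries, with the groups overlapping. The fatty acid synthesis arm ran from 567 to 717 against 517 to 546, without overlap. Without Scd1, left out after its values were seen, that sum was 469 to 500.1 against 445 to 496, with overlap. The oxidation arm ran from 375.0 to 395 against 366 to 426, with overlap.

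In the sterol arm rises and falls were both called. Mvd and Hmgcs1, which act on the way to isopentenyl diphosphate, were higher in S100A4-positive cells, 1.85-fold and 1.35-fold by mean FPKM. Lss, Dhcr7 and Sc5d, which make lanosterol and finish cholesterol, were lower, 2.11-fold, 1.74-fold and 1.69-fold. Grouped by step after the values were seen, and so with no test, the 6 genes up to farnesyl diphosphate had 2 higher calls and 1 lower among 5 tested, and of the 7 from squalene synthesis on 3 were lower and 4 did not pass. Over all genes 19.0% were called higher and 43.4% lower, so 3 lower among 7 is near the share of all genes. The sixth early gene, Fdps, was 2.86-fold lower by mean and too low to be tested here, and among the further sterol enzymes Acat2, at the first step, was called lower (-0.50, adjusted p = 0.0273; -0.19 and not called after median-of-ratios rescaling).

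Mvd, mevalonate diphosphate decarboxylase (chr8:122433601-122443422, GRCm38, as for all gene positions here, from GENCODE M21), had 10.1, 12.7 and 10.8 FPKM in the S100A4-negative and 25.2, 18.1 and 19.0 in the S100A4-positive libraries. Every S100A4-positive library lay above every S100A4-negative one, and the change was 0.82 (SE 0.16, adjusted p = 0.00395). Hmgcs1, the synthase that makes the precursor of mevalonate (chr13:119690379-119708260), rose from 16.0 ± 0.94 to 21.6 ± 3.2 FPKM (SD, n = 3), a change of 0.40 (SE 0.14, adjusted p = 0.0423). That call was near the threshold: leaving out any one library except S100A4-positive replicate 1 gave an adjusted p of 0.0656 to 0.135, no filter gave 0.065 and limma without trend 0.0502, while 12.1% of its exon bases lie opposite an antisense gene, with strand use in the counting not stated. Mvk, mevalonate kinase, fell by 0.56 (SE 0.20, adjusted p = 0.039) from 9.76 ± 1.2 to 6.41 ± 1.6 FPKM, a call lost after median-of-ratios rescaling (-0.22, adjusted p = 0.396), after quantile normalization (-0.27, adjusted p = 0.286), with no filter (adjusted p = 0.0756) and without any 1 of the 3 S100A4-negative libraries or S100A4-positive replicate 1 (adjusted p 0.063 to 0.118).

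Lss, lanosterol synthase, which closes the sterol rings (chr10:76531588-76557138), had 5.62, 4.39 and 5.44 FPKM in the S100A4-negative and 2.61, 1.74 and 2.97 in the S100A4-positive libraries (-0.85, SE 0.19, adjusted p = 0.00688). Sc5d, sterol C5-desaturase (chr9:42251595-42264256), had 21.5, 22.7 and 22.8 against 13.8, 12.9 and 12.98 FPKM (-0.71, SE 0.11, adjusted p = 0.00131). Dhcr7, which makes cholesterol in the last step (chr7:143823145-143848410), had 19.3, 18.4 and 18.6 against 10.6, 8.95 and 12.8 FPKM (-0.76, SE 0.15, adjusted p = 0.00367). The groups were apart for all 3, and the spread within a group was below the gap between groups. Each stayed lower relative to the typical gene, at -0.56 for Lss, -0.36 for Sc5d and -0.41 for Dhcr7 after median-of-ratios rescaling.

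Cyp51, lanosterol demethylase and the most abundant of the sterol enzymes, had 37.4, 58.9 and 52.5 FPKM in the S100A4-negative and 25.9, 39.5 and 39.4 in the S100A4-positive libraries. The groups overlapped through S100A4-negative replicate 1, and the change of -0.49 (SE 0.22) did not pass (adjusted p = 0.0891). Without that library it passed, at -0.68 (adjusted p = 0.0338). It also passed in the limma fit with a block on the replicate number, the replicate block (adjusted p = 0.00664). Pmvk, phosphomevalonate kinase, had 8.23, 12.9 and 15.4 against 9.43, 16.0 and 18.9 FPKM. The spread within each group was larger than the difference (0.25, SE 0.30, adjusted p = 0.487). With the replicate block the SE of Pmvk was 0.11, and the gene still did not pass (adjusted p = 0.0893). The other 4 that did not pass were Idi1, the isomerase of isopentenyl diphosphate (0.40), Nsdhl, a sterol dehydrogenase (-0.37), Fdft1, squalene synthase (-0.22) and Sqle, squalene epoxidase (-0.01), with adjusted p from 0.0701 to 0.944. Idi1 passed with the replicate block (adjusted p = 0.0382). Fdft1 turned to 0.11 and Sqle to 0.32 after median-of-ratios rescaling. For Fdft1, 18.3% of the exon bases lie opposite Ctsb, an abundant cathepsin gene. Fdps, farnesyl diphosphate synthase, was not tested: its mean was 0.995 FPKM, just under the filter of 1, from 1.91, 1.101 and 1.41 FPKM in the S100A4-negative and 0.553, 0.456 and 0.540 in the S100A4-positive libraries, and 26.7% of its exon bases are shared on the same strand with a predicted gene, Gm43738.

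Of the 4 genes of sterol control 1 was called higher, 1 lower and 2 did not pass (25% each way, beside 19.0% higher and 43.4% lower over all genes). Scap, the escort that carries the SREBP precursors from endoplasmic reticulum to Golgi (chr9:110333288-110384950), had 93.7, 76.6 and 78.7 FPKM in the S100A4-negative and 48.3, 40.9 and 41.7 in the S100A4-positive libraries. All S100A4-positive values lay below all S100A4-negative ones, 1.90-fold lower by mean (-0.91, SE 0.13, adjusted p = 0.000902); 13.2% of its exon bases lie opposite an antisense gene. Insig1, which holds Scap in the endoplasmic reticulum when sterols are plentiful and is itself a target of SREBP (chr5:28071363-28078662), had 68.9, 86.6 and 77.0 against 91.8, 117 and 106 FPKM, 1.36-fold higher (0.43, SE 0.14, adjusted p = 0.0287). The Insig1 call was lost without S100A4-negative replicate 1 or 3, or S100A4-positive replicate 2 or 3 (adjusted p 0.0754 to 0.0874), and with no filter (0.0514).

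Srebf2, which encodes the main factor for sterol genes, had the highest mean FPKM of the 43 genes in S100A4-negative cells, with 152, 165 and 164 FPKM in the S100A4-negative and 175, 210 and 191 in the S100A4-positive libraries. The groups were apart, yet the change of 0.26 (SE 0.12) did not pass (adjusted p = 0.0925); it passed without S100A4-positive replicate 1 (0.32, adjusted p = 0.0461) and after median-of-ratios rescaling (0.63, adjusted p = 0.00622). Srebf1, which encodes the main factor for fatty acid genes, had 154, 114 and 106 against 104, 75.7 and 94.1 FPKM. Its change of -0.44 (SE 0.18) did not pass (adjusted p = 0.072). It passed without S100A4-positive replicate 1 (-0.54, adjusted p = 0.0473) and with the replicate block (adjusted p = 0.024).

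Fatty acid synthesis and desaturation held the largest falls on the log2(FPKM + 1) scale among the 42 genes tested. Fasn, the fatty acid synthase (chr11:120805846-120824547), had 70.6, 67.4 and 71.6 FPKM in the S100A4-negative and 29.4, 24.9 and 30.5 in the S100A4-positive libraries, 2.47-fold lower (-1.28, SE 0.12, adjusted p = 0.000152). The highest S100A4-positive library lay below every S100A4-negative one, and the spread within a group was small beside the gap. Acly, which supplies cytosolic acetyl-CoA from citrate (chr11:100476353-100528000), had 114, 107 and 106 against 91.4, 79.3 and 82.1 FPKM (-0.37, SE 0.11, adjusted p = 0.0202). That change is close to the median of all genes, -0.36: after median-of-ratios rescaling Acly stood at 0.01 (adjusted p = 0.966), and leaving out any library except S100A4-positive replicate 1 gave an adjusted p of 0.0504 to 0.0683. Acaca, acetyl-CoA carboxylase, which makes malonyl-CoA, had 17.2, 14.2 and 17.7 against 16.5, 13.6 and 13.9 FPKM with overlapping groups (-0.15, SE 0.14, adjusted p = 0.392; 0.21 after median-of-ratios rescaling).

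Scd2, a stearoyl-CoA desaturase that makes oleate (chr19:44293674-44306864), had 56.4, 57.3 and 62.0 FPKM in the S100A4-negative and 27.1, 18.2 and 26.3 in the S100A4-positive libraries, 2.46-fold lower (-1.28, SE 0.16, adjusted p = 0.000609). Fads2, the desaturase that opens the synthesis of polyunsaturated fatty acids (chr19:10062765-10101746), had 3.31, 3.81 and 3.67 against 1.495, 1.79 and 1.97 FPKM (-0.74, SE 0.15, adjusted p = 0.00487). Elovl6, which elongates palmitate (chr3:129532355-129638495), had 4.24, 5.13 and 5.40 against 2.83, 2.40 and 2.11 FPKM (-0.78, SE 0.16, adjusted p = 0.00482). All 3 were 2.01-fold to 2.46-fold lower by mean, without overlap.

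Scd1, the paralog of Scd2, had 66.4, 157 and 234 FPKM in the S100A4-negative and 49.8, 69.6 and 72.0 in the S100A4-positive libraries. The S100A4-negative libraries differed 3.52-fold among themselves, the first lay within the S100A4-positive range, and the change of -1.09 (SE 0.42) did not pass (adjusted p = 0.0549). Without S100A4-negative replicate 1 it passed, at -1.59 (adjusted p = 0.00251), as it did with the replicate block (adjusted p = 0.0124). The B cell marker Cd79a, picked after the values were seen, had 129, 272 and 341 FPKM in the same 3 libraries and 56.4, 78.9 and 103 in the S100A4-positive ones. That is the same order within each group as Scd1. Ighm, the most abundant of the 9 B cell markers, ran in another order, at 6612, 11520 and 8658 against 1287, 1220 and 1052 FPKM. The rest of the list ran in the order of Cd79a. The part of B cells in the Scd1 values was not tested.

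Elovl1 and Elovl5, elongases of very long saturated and of polyunsaturated fatty acids, went the other way from Elovl6. Elovl1 (chr4:118428093-118432953) had 59.0, 54.1 and 47.5 FPKM in the S100A4-negative and 126, 83.7 and 85.7 in the S100A4-positive libraries, 1.84-fold higher (0.85, SE 0.18, adjusted p = 0.00542). Elovl5 rose from 157 ± 6.4 to 205 ± 25 FPKM (SD, n = 3), which made it the most abundant of the 43 in S100A4-positive cells (0.38, SE 0.12, adjusted p = 0.0307). The Elovl5 call was lost with no filter (adjusted p = 0.0537) and without any one library except S100A4-positive replicate 1 (0.0523 to 0.0934). Fads1, the next desaturase after Fads2, had 12.5, 10.1 and 12.2 against 11.6, 8.45 and 9.48 FPKM, and its change of -0.22 (SE 0.16, adjusted p = 0.245) turned to 0.12 after median-of-ratios rescaling.

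**Figure D3:**
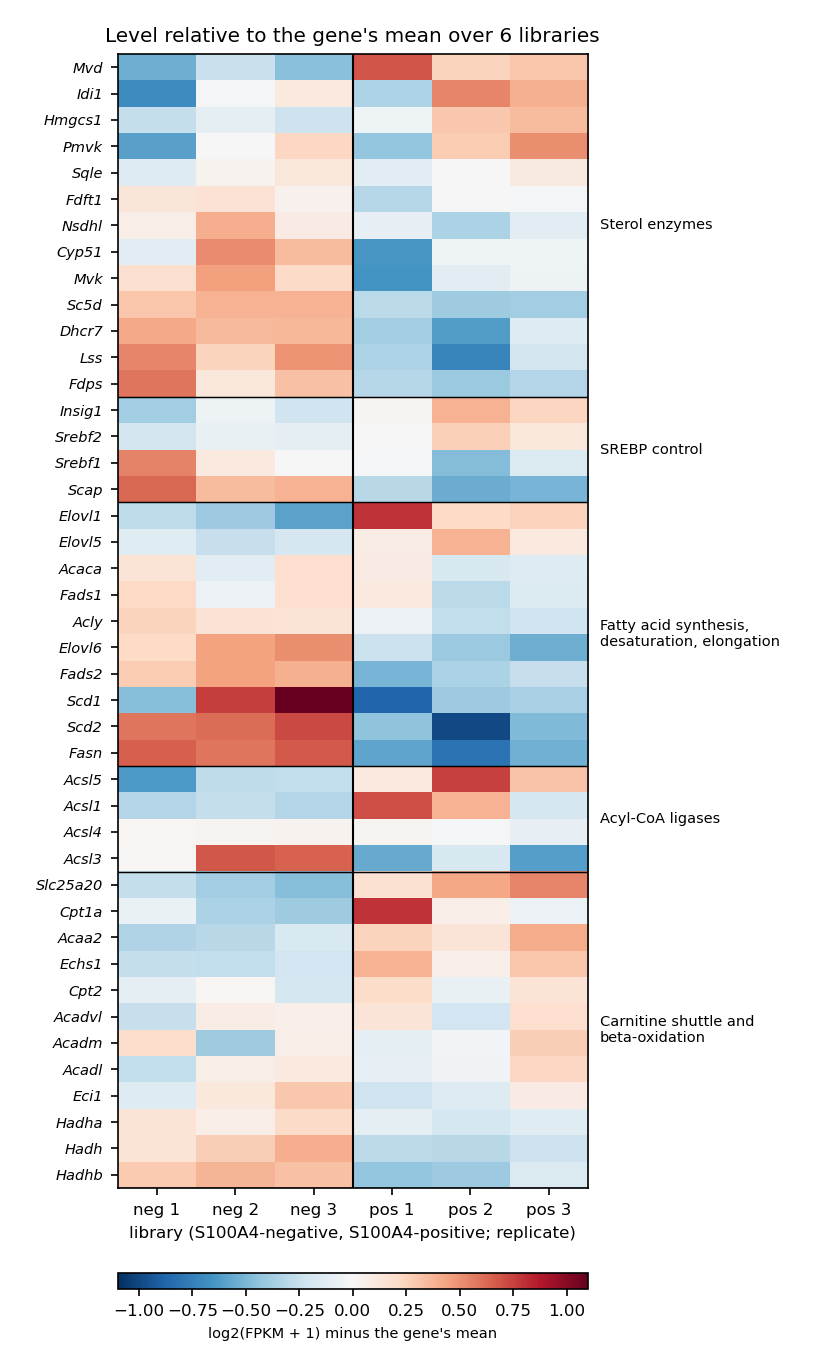
Level of each of the 43 genes in each of the 6 libraries (columns), as log2(FPKM + 1) minus the gene's mean over the libraries; red is above and blue below that mean. Fasn, Scd2 and Lss are red in all 3 S100A4-negative columns, Elovl1, Acsl5 and Slc25a20 in all 3 S100A4-positive ones, and Scd1 differs between the S100A4-negative columns.

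The 4 long-chain acyl-CoA ligases, which hand fatty acids to the synthesis of complex lipids or to oxidation, had 2 called rises and 1 called fall. These are 50% and 25% of only 4 genes, beside 19.0% and 43.4% of all genes. Acsl5 (chr19:55251938-55297720) had 58.0, 74.4 and 74.5 FPKM in the S100A4-negative and 97.4, 153 and 112 in the S100A4-positive libraries, 1.75-fold higher (0.78, SE 0.19, adjusted p = 0.00931). Acsl3 (chr1:78657825-78707743) had 8.15, 13.6 and 13.2 against 5.16, 6.99 and 4.94 FPKM, 2.04-fold lower (-0.90, SE 0.22, adjusted p = 0.0103), a call lost after median-of-ratios rescaling (-0.56, adjusted p = 0.0756) and quantile normalization (-0.61, adjusted p = 0.0523). Both were without overlap. Acsl1 (chr8:46471037-46536051) had 27.8, 29.0 and 27.8 against 57.9, 45.8 and 30.6 FPKM (0.60, SE 0.22, adjusted p = 0.0428). The S100A4-positive libraries of Acsl1 ran from just above the S100A4-negative ones to well above them, and its call was lost with array weights (0.34, adjusted p = 0.168), with no filter (0.0859), in limma without trend (0.0515) and without any one library except S100A4-positive replicate 3 (0.0856 to 0.11). Acsl4 was nearly equal in all libraries, at 20.9, 21.0 and 21.1 against 21.0, 20.3 and 19.3 FPKM (-0.06, SE 0.11, adjusted p = 0.66), which is 0.30 after median-of-ratios rescaling, a called rise there (adjusted p = 0.0433).

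In the carnitine shuttle the 3 genes had positive fold changes, and 1 passed. Slc25a20, the carnitine-acylcarnitine carrier of the inner mitochondrial membrane (chr9:108662088-108684641), had 12.6, 11.6 and 10.8 FPKM in the S100A4-negative and 17.4, 21.0 and 22.7 in the S100A4-positive libraries, 1.74-fold higher without overlap (0.75, SE 0.14, adjusted p = 0.00322). Cpt1a, the rate-limiting transferase of the outer membrane (chr19:3322334-3385733), had 67.8, 55.9 and 54.2 against 125, 74.9 and 68.3 FPKM. Its S100A4-positive values lay above all S100A4-negative ones, in 2 libraries by little, and the change of 0.54 (SE 0.23) did not pass (adjusted p = 0.0752). It passed after median-of-ratios rescaling (0.91, adjusted p = 0.0146), after quantile normalization (0.64, adjusted p = 0.0459) and without S100A4-positive replicate 3 (0.70, adjusted p = 0.0448). With the replicate block it also passed (adjusted p = 0.0175). Cpt2, the transferase of the inner membrane, had 8.14, 8.93 and 7.51 against 10.2, 8.23 and 9.85 FPKM with overlap (0.18, SE 0.14, adjusted p = 0.297), and passed after median-of-ratios rescaling (0.52, adjusted p = 0.0152).

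Of the 9 enzymes of the beta-oxidation cycle 2 were called higher and 3 lower (22.2% and 33.3%, beside 19.0% and 43.4% of all genes). The falls depended on the scaling: none was called after median-of-ratios rescaling in limma (1 at an unadjusted p under 0.05), and that of Hadhb alone after quantile normalization (-0.54, adjusted p = 0.00597). Acaa2, a thiolase of the cycle, had 18.3, 18.7 and 20.6 FPKM in the S100A4-negative and 27.8, 25.7 and 31.3 in the S100A4-positive libraries. It was 1.47-fold higher (0.53, SE 0.12, adjusted p = 0.00755). Echs1, the short-chain enoyl-CoA hydratase (chr7:140105710-140116476), had 10.6, 10.6 and 11.01 against 17.2, 13.4 and 16.1 FPKM, 1.45-fold higher (0.49, SE 0.13, adjusted p = 0.0147; 0.051 without S100A4-positive replicate 3). Neither gene's groups overlapped, and both rises were larger after median-of-ratios rescaling, at 0.89 and 0.84.

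Hadhb, the thiolase subunit of the trifunctional protein (chr5:30155248-30184593), had 59.5, 63.0 and 61.0 FPKM in the S100A4-negative and 35.9, 36.4 and 43.2 in the S100A4-positive libraries (-0.66, SE 0.12, adjusted p = 0.00228). Hadh, the short-chain 3-hydroxyacyl-CoA dehydrogenase (chr3:131233419-131272101), had 8.70, 9.59 and 10.6 against 6.18, 6.09 and 6.47 FPKM (-0.55, SE 0.13, adjusted p = 0.00934). Both were without overlap, yet after median-of-ratios rescaling neither fall was called, at -0.29 (adjusted p = 0.0614) and -0.21 (adjusted p = 0.162). Hadha, the partner subunit that shares its start region with Hadhb (chr5:30118304-30155162), fell from 94.1 ± 4.6 to 77.0 ± 2.7 FPKM (SD, n = 3), a change of -0.29 (SE 0.10, adjusted p = 0.0423). Hadha turned to 0.09 (adjusted p = 0.442) after median-of-ratios rescaling, was not called after quantile normalization (-0.22, adjusted p = 0.0851) or without trend (adjusted p = 0.0674), and was lost without any one library except S100A4-positive replicate 1 (0.0659 to 0.133).

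The acyl-CoA dehydrogenases, which take the first step of each cycle, did not pass on FPKM as deposited. Acadl, for long chains, had 35.9, 45.5 and 46.7 FPKM in the S100A4-negative and 40.7, 42.4 and 51.0 in the S100A4-positive libraries (0.07, SE 0.15, adjusted p = 0.71). Acadm, for medium chains, had 42.2, 27.8 and 38.5 against 34.2, 36.1 and 44.6 FPKM (0.09, SE 0.18, adjusted p = 0.678). Acadvl, for very long chains, changed by 0.08 (adjusted p = 0.684), and 42.9% of its exon bases lie opposite Dvl2. Values overlapped between groups for all 3, and the sign of each turned when a single library was left out. After median-of-ratios rescaling Acadl (0.44, adjusted p = 0.0321) and Acadvl (0.44, adjusted p = 0.0327) were called higher and Acadm was not (0.46, adjusted p = 0.0561). Eci1, an enoyl-CoA isomerase for unsaturated chains, changed by -0.18 (adjusted p = 0.346) and stood at 0.17 after median-of-ratios rescaling.

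**Figure D4:**
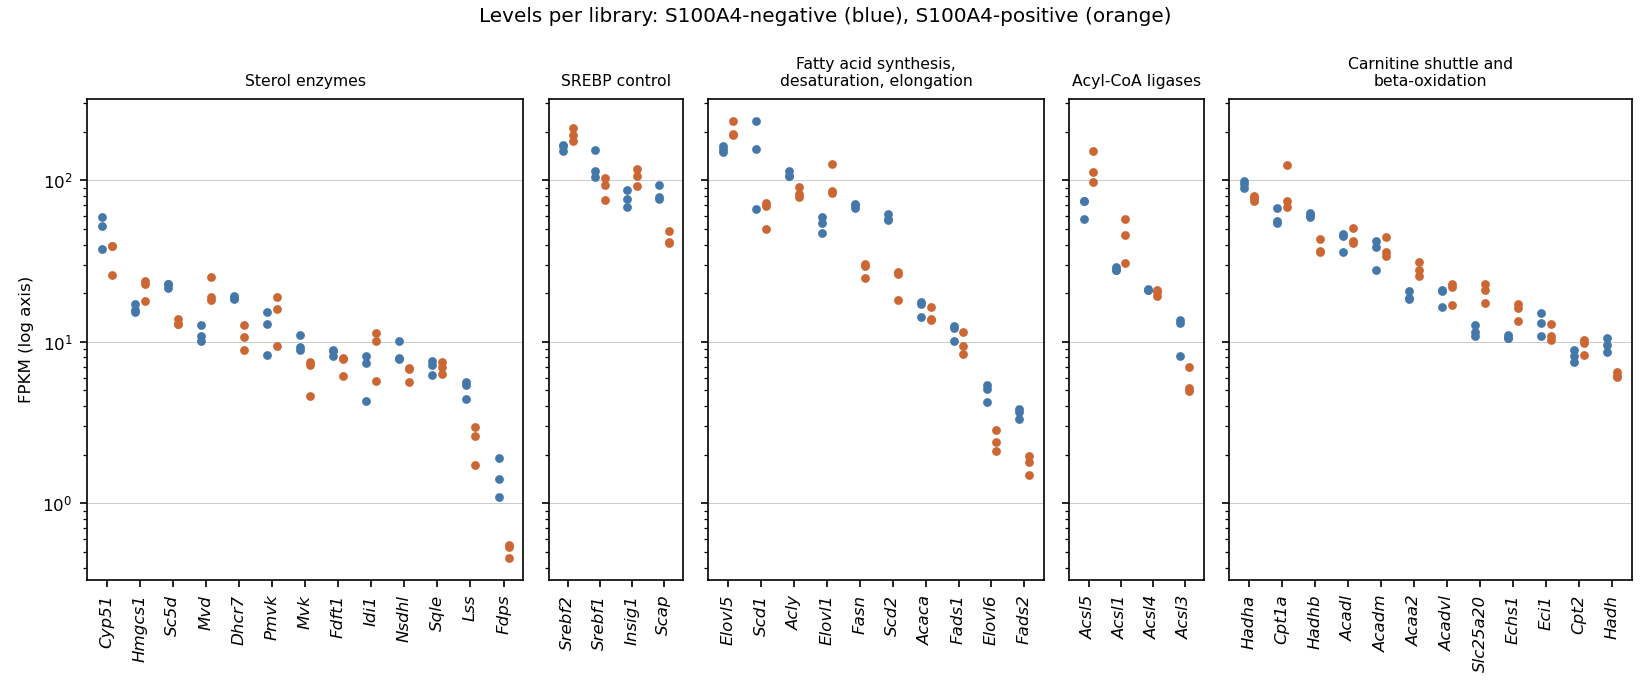
FPKM of the 43 genes in each library on a log axis, S100A4-negative in blue and S100A4-positive in orange, ordered within each role by mean level. Cyp51 is the highest and Fdps the lowest of the sterol enzymes, and Srebf2 and Elovl5 have the highest means of all 43.

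A further 72 genes of the same pathways were listed from textbook knowledge. Of 52 that could be tested, 10 were called higher, 19 lower and 23 did not pass (17 higher and 11 lower after median-of-ratios rescaling). These are 19.2% and 36.5% of those tested (32.7% and 21.2% rescaled), near the 19.0% and 43.4% (27.3% and 24.8%) over all genes. Of the 9 other sterol enzymes 5 were called lower (55.6%, beside 43.4% of all genes) and 4 did not pass. After median-of-ratios rescaling 2 of them were lower, 1 was higher (Msmo1, 0.49, adjusted p = 0.0115) and 6 did not pass. Lbr, a sterol reductase that is also the lamin B receptor, had 140, 137 and 157 FPKM in the S100A4-negative and 54.0, 50.01 and 56.5 in the S100A4-positive libraries (-1.42, adjusted p = 8.51e-05), and Ggps1, which makes geranylgeranyl diphosphate, and Hsd17b7, a sterol ketoreductase, fell by 0.80 and 0.77; the Hsd17b7 call was lost after median-of-ratios rescaling. Among 7 further control genes 2 were called higher and 3 lower (28.6% and 42.9%, beside 19.0% and 43.4% of all genes). Nr1h3, the liver X receptor alpha of macrophages, had 2.21, 5.50 and 3.55 against 73.6, 54.4 and 85.9 FPKM (3.96, adjusted p = 5.65e-05). Mbtps1, the first protease that cuts the SREBP precursors, fell by 0.83, in the same direction as Scap.

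Of the other genes of fatty acid synthesis and elongation 9 of 20 could be tested, with 3 higher and 3 lower (33.3% each). The shares over all genes, for this and the sets below, were 19.0% higher and 43.4% lower. After median-of-ratios rescaling 4 of the 9 were higher and 2 lower, beside 27.3% and 24.8% of all genes. Hacd4 and Hacd3, dehydratases of the elongation cycle, went opposite ways (2.15 and -1.48), and Hsd17b12, the reductase of that cycle, rose by 1.02. Among other activating enzymes Acsbg1 and Slc27a4 were lower (-1.63 and -0.93), and the other 2 that could be tested did not pass. In mitochondrial oxidation 2 of 13 tested were higher and 4 lower (15.4% and 30.8%), and after median-of-ratios rescaling 4 were higher and 1 lower. Those called on FPKM as deposited include Crat, carnitine acetyltransferase (0.82), Ppargc1b, a coactivator of mitochondrial genes (-0.72, not called after either rescaling), and Acad10 (-0.69). In peroxisomal oxidation, which shortens very long chains, 3 of 10 were higher and 2 lower (30% and 20%). After median-of-ratios rescaling 5 were higher and 2 lower. Hsd17b4, the D-bifunctional protein, had 27.9, 31.3 and 30.0 FPKM in the S100A4-negative and 61.6, 72.3 and 72.8 in the S100A4-positive libraries (1.18). Ehhadh, the L-bifunctional protein for the same steps, had 4.25, 4.66 and 4.84 against 1.01, 0.742 and 1.08 (-1.52). Crot, the peroxisomal carnitine octanoyltransferase, fell by 1.37. With 3 libraries a side, the exact two-sided permutation test of a single gene cannot go below p = 0.1, so the calls rest on the spread that limma shares across genes.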

How the data were processed

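RNA was sequenced from 3 S100A4-negative and 3 S100A4-positive libraries, and table columns carry the sample titles. HISAT2 2.1.0, Cufflinks, Cuffnorm and the build mm10 are named, per the submitters' processing notes, without a role for each tool; how reads in overlapping genes or on either strand were counted is not given in the sources used here. The deposited level table holds FPKM. The authors' deposited comparison table holds, per the file headers, group means of normalized read counts (a signal for each gene), log2 fold changes and p-values before and after adjustment, and names no test.

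The test covered 13241 genes whose FPKM averaged 1 or more over the 6 libraries (42710 were below). It used log2(FPKM + 1) in limma 3.58.1 (R 4.3.3), a prior variance with a trend, and Benjamini-Hochberg adjustment over all genes tested; calls are at an adjusted p under 0.05. Reads per gene were recovered by combining FPKM with the authors' group means, and 135018 of 135018 values above 0 came out within 0.02 of a whole read. Voom with limma on these reads called 8239 genes with library totals, against 8253 for FPKM, and with the authors' size factors (added after seeing the data) 6871. The other alternatives were no filter, a filter of 5, a pseudocount of 0.1, quantile normalization, median-of-ratios rescaling, array weights, no trend, a block on the replicate number and each library left out. The steps were tested on simulated data. Tables and figures used Python 3.11.15, numpy 2.4.6, pandas 2.3.3 and matplotlib 3.10.9.

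The lipid genes, the further pathway genes and the marker lists were chosen with earlier results of these data known. Values in every library are given, in each role, for up to 4 called genes with the largest change and up to 2 uncalled genes with the highest mean FPKM, and for up to 3 called further genes per pathway; the other values named were chosen after they were seen. Some further pathway genes are not reported here by name and stay in the counts. Positions are from GENCODE M21 (GRCm38).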

Additional observations from a re-analysis of the deposited data

How the results depend on the processing

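The scaling between libraries moves the median of all genes by 0.33 (median-of-ratios rescaling) or 0.20 (quantile normalization), which shifts the balance of higher and lower calls. Calls over all genes ran from 6198 to 8916, against 8253. With no filter 6 lipid genes were called higher, with 1 in the sterol arm and 1 in fatty acid synthesis; a filter of 5 left 3 lower calls in fatty acid synthesis and a median there of -0.30; and limma without trend left 1 higher sterol call. Median-of-ratios rescaling gave 16 higher and 8 lower lipid genes, 7 higher and 0 lower in oxidation (limma, 1 lower at an unadjusted p under 0.05), 17 higher and 11 lower among the other pathway genes, and medians of 0.19 (all lipid genes, turned), 0.0355 (sterol, turned), -0.23 (fatty acid synthesis) and 0.45 (oxidation). Voom with the authors' size factors gave 16 and 8, 7 and 0, 20 and 11, and medians of 0.21 (turned), 0.0534 (turned), -0.31 and 0.48. Quantile normalization gave 5 higher and 1 lower in oxidation, 16 higher among the other pathway genes, and medians of 0.11 (all lipid genes, turned), -0.0164 (sterol) and 0.29 (oxidation). The cause of the shift was not tested.

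Leaving out each library in turn gave 6 to 10 higher lipid genes (6 without S100A4-negative replicate 1 or 3, or S100A4-positive replicate 2), 11 to 15 lower, 1 to 2 higher in the sterol arm and 1 to 2 in fatty acid synthesis (2 only without S100A4-positive replicate 1), and an oxidation median of -0.0071 to 0.17, below 0 only without S100A4-positive replicate 3. Directions of single genes that turned, under median-of-ratios rescaling, quantile normalization and voom with the authors' size factors in that order, were 0.11, 0.058 and 0.13 for Fdft1, 0.32, 0.27 and 0.37 for Sqle, 0.21, 0.12 and 0.23 for Acaca, 0.12, 0.0477 and 0.15 for Fads1, 0.30, 0.18 and 0.33 for Acsl4, and 0.17, 0.10 and 0.19 for Eci1. Acly turned to 0.0061 and 0.0143 and Hadha to 0.0889 and 0.0988 under the first and the last of these. Sqle also turned in the fit with array weights (0.0253). With single libraries left out it ran from -0.0854 to 0.0448, Acadvl from -0.0282 to 0.202, Acadl from -0.0505 to 0.1352 and Acadm from -0.081 to 0.2105.

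Whether the replicate numbers pair the samples is not settled here. Deviations from the group means correlated at 0.376, 0.083 and 0.366 between same-numbered libraries. Between libraries of different numbers they correlated at -0.379 to 0.146, and 5 of 6 libraries correlated best with their own number. With the replicate block 12 lipid genes were called higher and 17 lower, and 8857 genes in all; the 5 added calls were Idi1, Cyp51, Srebf1, Scd1 and Cpt1a. Depth limits Fdps, with 8 to 38 reads per library, and S100a4, with at most 25.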
